A study of Mus musculus with 8 samples.

Results

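The 9 transcription factors followed here are known regulators of blood and lymphatic vessels, and they were traced across the cells of the adult mouse liver: *Gata4*, *Maf*, *Sox17*, *Sox18*, *Prox1*, *Erg*, *Klf2*, *Klf4* and *Tfec*. They were chosen by name and with earlier results of these data known. All 9 had a row among the 46517 genes counted (spike-ins left out). Transcription factors bind DNA next to genes and set which of them are read, and a combination of several gives an endothelial cell its vessel type. The liver holds arteries, portal and central veins, lymphatic vessels and, between the veins, sinusoids, capillaries with open pores through which plasma reaches the hepatocytes. Of the 9 genes, ERG and SOX18 are known from endothelial cells in general and SOX17 from arteries. GATA4 and MAF are known from the sinusoids and PROX1 from lymphatic vessels, KLF2 and KLF4 respond to blood flow, and TFEC belongs to the MITF/TFE family and is known best from macrophages.

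Livers of adult male and female C57BL6 mice, which were not perfused, gave the cells. Endothelial cells were sorted on antibodies against CD31 or VE-cadherin or on a Cldn5-GFP reporter, mesenchymal cells on Pdgfra-H2bGFP, Pdgfrb-GFP or Acta2-GFP reporters or an antibody against PDGFRα, Kupffer cells on CD68, cholangiocytes on EPCAM, and hepatocytes without a marker. Reporter mice carried 1 copy of the transgene, no mouse was treated, and no label ties a cell to its mouse. The series holds 8 samples, each the male or the female cells of 1 of 4 classes, called endothelial, immune, mesenchymal and parenchymal (hepatocytes and cholangiocytes) here. A class therefore had 2 pools, and p values measure the spread between these pools alone.

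Every cell was sequenced as its own Smart-seq2 library, and reads were counted per gene without molecular identifiers, so that intervals on shares of cells cover counting error only. The 3491 cells had 50042 to 1143895 reads each, with medians of 92554 to 325037 per pool. A level is given in CPM, the reads of a gene per 1000000 reads over all cells of a group. For tests, reads were summed per pool and compared with edgeR's quasi-likelihood test. Genes were called higher or lower where the Benjamini-Hochberg adjusted p over all genes tested was under 0.05 and they changed by 1 or more on the log2 scale. The 8 endothelial markers (*Pecam1*, *Cdh5*, *Kdr*, *Tie1*, *Egfl7*, *Ptprb*, *Emcn* and *Tek*) were summed to 10594 and 11268 CPM in the male and female endothelial pools and to between 79.1 and 629 CPM in the pools of the other classes, and none of them was at 0 in endothelial cells.

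By the authors' annotation, endothelial cluster e1 (152 cells) and e7 (150 cells) belonged to the central vein, e2 (128 cells) to the portal vein with 14 cells of the peribiliary vessels, e3, e5 and e8 (236, 151 and 155 cells) to the sinusoids, e6 (112 cells) to a further sinusoidal group, and e4 (22 cells) to the lymphatic endothelium. The authors made these clusters from the same cells, so a difference between clusters is partly built in. All 22 plates held cells of 1 sex only, so sex, mice and plates cannot be told apart. In such sums, fewer cells of a type and less RNA per cell cannot be told apart either.

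In the GENCODE annotation of GRCm38, all 9 are protein-coding genes. *Sox17* lies at chr1:4490931-4497354 and *Prox1* at chr1:190118035-190170714, *Sox18* at chr2:181669836-181671640, *Klf4* at chr4:55527143-55532466 and *Tfec* at chr6:16833373-16898441. *Klf2* (chr8:72319033-72321656) and *Maf* (chr8:115682942-115707794) share a chromosome, *Gata4* lies at chr14:63198922-63271692 and *Erg* at chr16:95359169-95586593. *Klf2* is on the plus strand and the others are on the minus strand. Genes on the opposite strand overlap 3 of them, *Gm15655* at *Maf*, *Gm37587* at *Sox17*, and *Gm28172* and *Prox1os* at *Prox1*. Smart-seq2 libraries do not keep the strand, so reads from such a pair cannot be told apart. The counts assigned to these partners were lower than those of the members, with 86.9 and 44.5 CPM for *Gm15655* in the male and female endothelial pools and 63.0 and 8.93 CPM for *Prox1os* in e4. For *Gm37587* they were 11.9 and 10.6 CPM in the endothelial pools, with its highest values in the female cells of e5 (135 CPM, beside 439 CPM of *Sox17*) and the male cells of e8 (87.4 CPM, beside 202 CPM).

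Promoter sequences of RefSeq (GRCm38.p6) were at hand for *Erg*, *Klf2*, *Klf4*, *Prox1* and *Tfec*. They were searched for short motifs of the members' own families, because these are the letters such factors are known to bind: AGATAA for GATA factors, AACAAT for SOX, AGGAAG for ETS (the family of ERG), CCACACCC for KLF, CACGTG for the E-box of MITF/TFE factors and TGCTGA for MAF, as well as CTATTTAT for MEF2, a known regulator of *Klf2*, and the general MEF2 consensus, which allows more letters and was added after the sequences had been seen. Both strands of the 300 bases from 250 before to 50 after each start site were read. Of 32817 such windows over all genes, 11.2% held the GATA motif, 10.7% the SOX motif, 35.4% the ETS motif, 3.56% the KLF motif, 7.15% the E-box, 19.5% the MAF motif, 1.10% the MEF2 motif and 3.19% the MEF2 consensus. The 250 bases before the start are shown for the pair of flow-responsive genes, for *Tfec*, and for the *Erg* window with most matches, 5′ to 3′ on the strand of the gene, with matches in capitals:
*Klf2*, chr8:72318812-72319061, plus strand: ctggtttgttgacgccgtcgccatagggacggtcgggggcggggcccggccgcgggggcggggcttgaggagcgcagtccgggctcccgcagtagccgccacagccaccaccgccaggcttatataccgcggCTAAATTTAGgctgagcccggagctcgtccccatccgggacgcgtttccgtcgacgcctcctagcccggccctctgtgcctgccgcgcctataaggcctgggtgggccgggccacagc
*Klf4*, chr4:55532476-55532725, minus strand: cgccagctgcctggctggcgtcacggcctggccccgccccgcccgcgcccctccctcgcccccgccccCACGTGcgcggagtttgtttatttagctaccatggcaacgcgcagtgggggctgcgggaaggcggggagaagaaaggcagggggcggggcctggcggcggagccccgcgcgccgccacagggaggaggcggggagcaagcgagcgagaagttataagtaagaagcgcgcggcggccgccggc
*Tfec*, chr6:16898442-16898691, minus strand: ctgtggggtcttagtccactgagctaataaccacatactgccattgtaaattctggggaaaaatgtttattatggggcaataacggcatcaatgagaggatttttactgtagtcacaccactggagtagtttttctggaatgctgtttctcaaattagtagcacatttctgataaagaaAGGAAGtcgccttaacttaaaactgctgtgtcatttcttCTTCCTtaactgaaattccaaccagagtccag
*Erg*, chr16:95459349-95459598, minus strand: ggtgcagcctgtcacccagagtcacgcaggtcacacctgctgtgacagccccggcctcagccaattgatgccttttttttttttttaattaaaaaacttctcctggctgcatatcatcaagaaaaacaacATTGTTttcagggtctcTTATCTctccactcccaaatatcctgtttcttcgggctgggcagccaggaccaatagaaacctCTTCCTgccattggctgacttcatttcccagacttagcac

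Positions count from the start site, with negative values before it. The *Klf2* window held a match of the MEF2 consensus from −118 and none of the 7 fixed motifs, and the *Klf4* window held the E-box alone, from −182. For *Tfec* the ETS motif stood at −71 and −32, and once more at 33 after the start. The *Erg* window held a SOX motif at −120, a GATA motif at −103 and an ETS motif at −40, and of its other 2 windows 1 held a MAF motif at −47 and 1 the MEF2 consensus at −16. The 2 windows of *Prox1* held none of the motifs. No matches overlapped, and such letters describe the sequence and do not show that a factor binds there. The GC content of the 300 bases ran from 37.3% in an *Erg* window to 74.3% for *Klf4*, against a median of 52.7% over all windows.

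Set against the mean of the other 3 classes, 8 of the 9 genes were called higher in endothelial cells and none lower, among 24046 genes of which 5.33% were called higher and 2.96% lower. DESeq2 called the same 8 genes, beside 8.87% of all genes higher and 11.4% lower. *Prox1* was the exception, with a log2 fold change of 0.92 (standard error 0.55, edgeR adjusted p = 0.391). The median log2 fold change of the 9 genes was 4.11, against 0.04 over all genes tested.

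**Figure D1:**
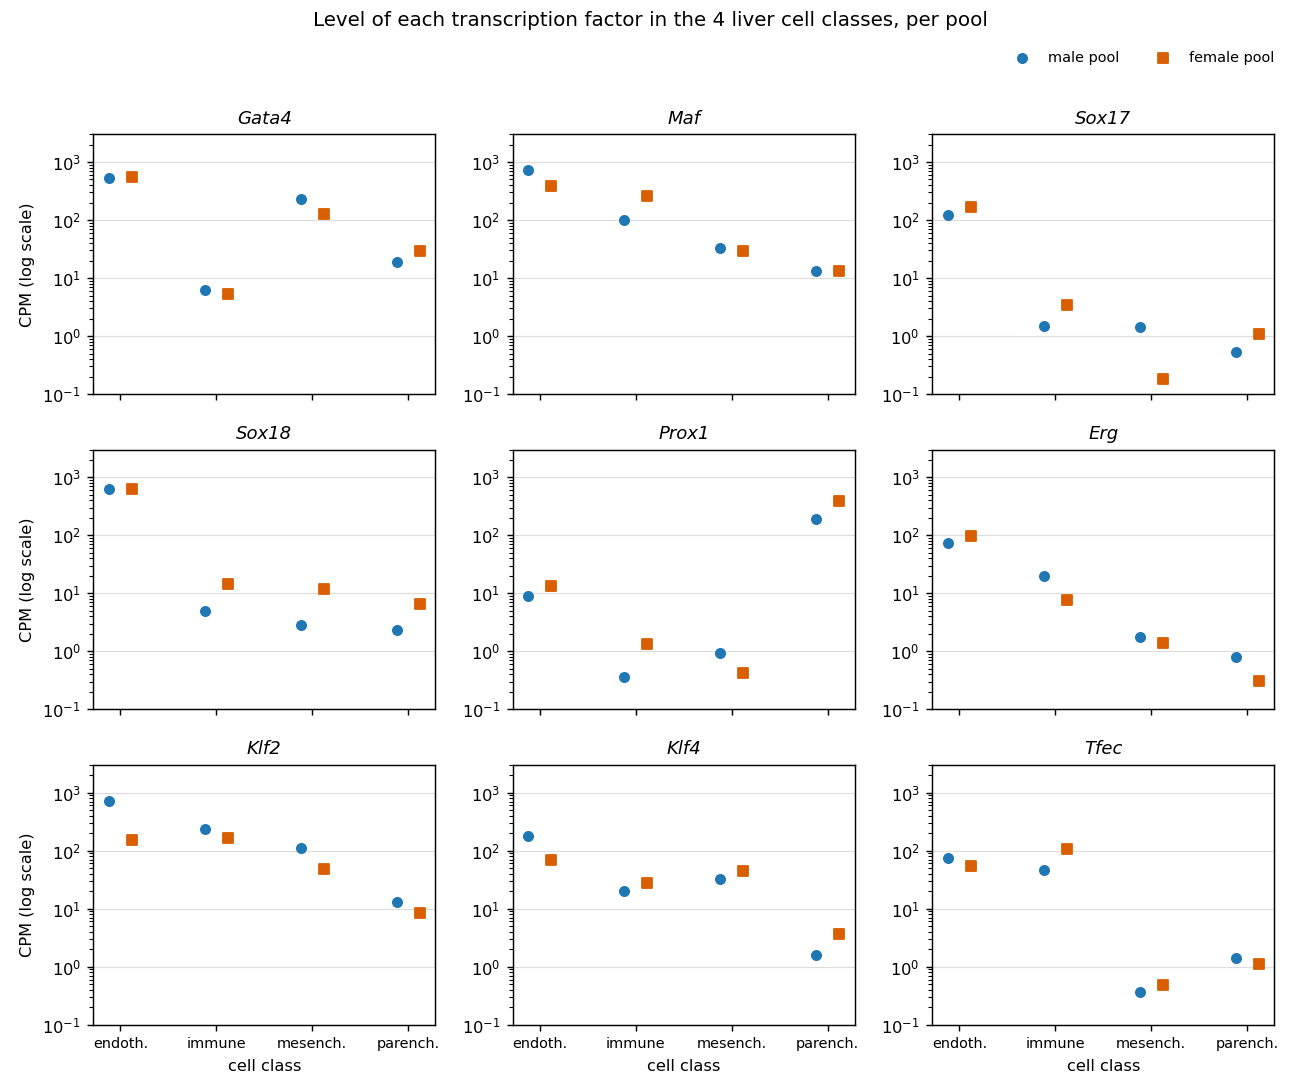
Level of each gene in CPM on a log axis (vertical) in the endothelial, immune, mesenchymal and parenchymal class (horizontal). A point is 1 pool, a circle the male and a square the female pool. *Sox17*, *Sox18* and *Erg* stand apart in both endothelial pools, *Prox1* in both parenchymal pools, and *Tfec* is high in endothelial and immune pools.

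*Sox17* and *Sox18*, which encode related SOX factors with partly shared roles in vessels, had the widest gaps. The *Sox18* level was 630.2 and 617 CPM in the male and female endothelial pools, and in the other 6 pools it lay between 2.35 CPM (male parenchymal) and 14.7 CPM (female immune). Its log2 fold change was 6.47 (standard error 0.60, edgeR adjusted p = 0.00126), which is 88.9-fold. For *Sox17* the endothelial pools had 124 and 167 CPM and the others 0.184 to 3.43 CPM, a log2 fold change of 6.87 (standard error 0.74, edgeR adjusted p = 0.00217). *Erg*, an ETS factor that keeps endothelial genes switched on, was at 75.1 and 97.2 CPM in endothelial pools and at 0.313 to 19.7 CPM elsewhere, a log2 fold change of 5.09 (standard error 0.54, edgeR adjusted p = 0.00206). The endothelial pools were above all others for these 3 genes, and their calls held under each of 15 alternatives.

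The 2 immune pools came next for *Erg*, with 19.7 (male) and 7.56 CPM (female). Of the 26 immune cells that the authors annotated as Cont (contaminated), 19.2% had 20 or more reads of *Erg*, and their level was 264 CPM for *Erg*, 215 CPM for *Sox18* and 103.5 CPM for *Gata4*. Without these cells, an alternative chosen after the values had been seen, the log2 fold change of *Erg* in immune cells against the other classes went from 1.73 to 0.60 (edgeR adjusted p = 0.0746 and 0.655). With all immune cells *Erg* was called higher under DESeq2 (1.70, adjusted p = 0.0188), with cells thinned to 50000 reads (2.52, edgeR adjusted p = 0.00950) and with sums per plate (3.49, edgeR adjusted p = 0.00228). Of the 10 immune and 10 mesenchymal cells with 20 or more reads of *Sox18*, 8 in each class also had at least 2 of the endothelial markers *Kdr*, *Tie1* and *Ptprb* at that limit, compared with 2.03% and 0.377% of the cells below it. For *Erg* these were 3 of 13 immune cells (23.1%) and 1 of 3 mesenchymal cells, beside 2.82% and 0.900% of the cells below the limit.

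*Gata4*, a zinc finger factor, was at 529.7 and 546 CPM in the endothelial pools, followed by 234 and 129 CPM in the mesenchymal pools. In the parenchymal pools it had 18.9 and 29.4 CPM and in the immune pools 6.32 and 5.32 CPM. The 4 classes thus had an order without overlap between pools. It was called higher in endothelial cells (log2 fold change 4.11, standard error 0.34, edgeR adjusted p = 8.4e-04) and in mesenchymal cells (2.19, standard error 0.34, edgeR adjusted p = 0.00489), and lower in immune cells (−4.41, standard error 0.49, edgeR adjusted p = 0.00112). The mesenchymal call was lost without the male mesenchymal pool, at a log2 fold change of 1.62 (edgeR adjusted p = 0.0684). Among mesenchymal cells, 383 of 1337 had 20 or more reads of *Gata4*. Their endothelial markers were summed to 110.2 CPM, against 92.5 CPM in the other mesenchymal cells, and 1.04% of them had 2 of *Kdr*, *Tie1* and *Ptprb*, against 0.943%. Over the mesenchymal annotations the *Gata4* level ran from 109.9 CPM in cells labelled PeriBilFB to 299 CPM in the cells labelled elaSMC, and it was 273 CPM in those labelled HSC.

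*Maf*, which encodes a large basic leucine zipper factor, was at 725 and 381 CPM in the endothelial pools and at 101 and 259 CPM in the immune pools, compared with 32.6 and 28.8 CPM in mesenchymal and 13.5 and 13.4 CPM in parenchymal pools. It was called higher in endothelial cells (log2 fold change 3.62, standard error 0.40, edgeR adjusted p = 0.00224) and in immune cells (1.66, standard error 0.41, edgeR adjusted p = 0.0307). The immune call was lost under 6 of 15 alternatives, each of which left out 1 pool, and without the female immune pool the log2 fold change was 0.72 (edgeR adjusted p = 0.445). Within the immune class, *Maf* was at 229.6 CPM in Kupffer cells, the resident macrophages of the liver, at 62.5 CPM in monocytes and at 3.53 CPM in B cells, and all 57 B cells were in the male pool.

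*Tfec* had 76.0 and 54.8 CPM in the endothelial pools and 45.6 and 107 CPM in the immune pools, 2 ranges that overlap. In the mesenchymal and parenchymal pools it lay between 0.371 and 1.43 CPM. It was called higher in endothelial (log2 fold change 4.14, standard error 0.43, edgeR adjusted p = 0.00197) and in immune cells (4.63, standard error 0.44, edgeR adjusted p = 5.8e-04), and both calls held under all 15 alternatives. In Kupffer cells its level was 100.8 CPM and in B cells 1.15 CPM. Of 469 Kupffer cells, 99 had 20 or more reads of both *Maf* and *Tfec*.

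*Klf2* and *Klf4*, zinc finger factors of which KLF2 is known to be switched on by laminar flow, were the members whose endothelial pools differed most. The endothelial levels of *Klf2* were 705 CPM (male) and 153 CPM (female), and the latter lay below both immune pools, which had 232 and 162 CPM. *Klf4* was at 176 and 68.7 CPM in the endothelial pools and at 1.60 to 43.8 CPM elsewhere. Both were called higher in endothelial cells, *Klf2* with a log2 fold change of 2.83 (standard error 0.55, edgeR adjusted p = 0.0197) and *Klf4* with 3.14 (standard error 0.44, edgeR adjusted p = 0.00563). Neither call held without the male endothelial pool, where the values were 1.39 (edgeR adjusted p = 0.356) and 2.35 (edgeR adjusted p = 0.110).

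*Prox1*, a homeobox factor needed for lymphatic vessels and also known from the developing liver and bile ducts, was at 189 and 387 CPM in the parenchymal pools, at 8.91 and 13.3 CPM in the endothelial pools and at 0.368 to 1.34 CPM in the remaining pools. In parenchymal cells it was called higher by a log2 fold change of 7.14 (standard error 0.57, edgeR adjusted p = 4.1e-04), a call that held under all 14 alternatives. Cholangiocytes had 289 CPM and hepatocytes 51.5 CPM, and 99 of 194 cholangiocytes (51.0%) had 20 or more reads of it. The female parenchymal pool held 37 cholangiocytes among its 39 cells and the male pool 157 among 358.

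In immune cells 2 of the 9 genes were called higher (*Maf* and *Tfec*) and 2 lower (*Gata4* and *Prox1*), where 7.92% and 5.25% of all genes were called higher and lower. Mesenchymal cells had 1 member higher (*Gata4*) and 2 lower (*Prox1* and *Tfec*), beside 9.47% and 2.33% of all genes. *Erg*, *Maf*, *Sox17* and *Sox18* were also called lower there under DESeq2 and without a filter, beside 6.97% and 3.41% of all genes called lower. With sums per plate *Erg* and *Sox18* were, beside 4.18%. In parenchymal cells 1 was called higher (*Prox1*) and 7 were lower, that is all others but *Sox17*, beside 8.37% and 4.05% of all genes. *Klf4* fell furthest there, with a log2 fold change of −4.35 (standard error 0.66, edgeR adjusted p = 0.00456), and *Gata4* least, with −1.88 (standard error 0.42, edgeR adjusted p = 0.0225). The parenchymal calls of *Gata4* and *Sox18* each failed under 6 of 14 alternatives, among them cells thinned to 50000 reads, at −0.82 and −2.27 (edgeR adjusted p = 0.327 and 0.135), and the removal of either endothelial or either parenchymal pool. That of *Klf2* failed without either parenchymal pool (edgeR adjusted p = 0.0680 and 0.0859), and that of *Erg* with sums per plate (−2.90, edgeR adjusted p = 0.0715). The low calls of *Prox1* failed without the male immune pool (−3.21, edgeR adjusted p = 0.0606) and without the female mesenchymal pool (−3.73, edgeR adjusted p = 0.0707). The shares of genes called are those of the same contrasts, and the 4 contrasts share their pools. The mean set against parenchymal cells includes the endothelial class, where most of these genes are high. Of the 7 genes called lower in parenchymal cells, *Klf2*, *Klf4*, *Maf* and *Erg* lay below every other pool. *Gata4*, *Sox18* and *Tfec* did not, and for these the low call holds against the mean only.

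**Figure D2:**
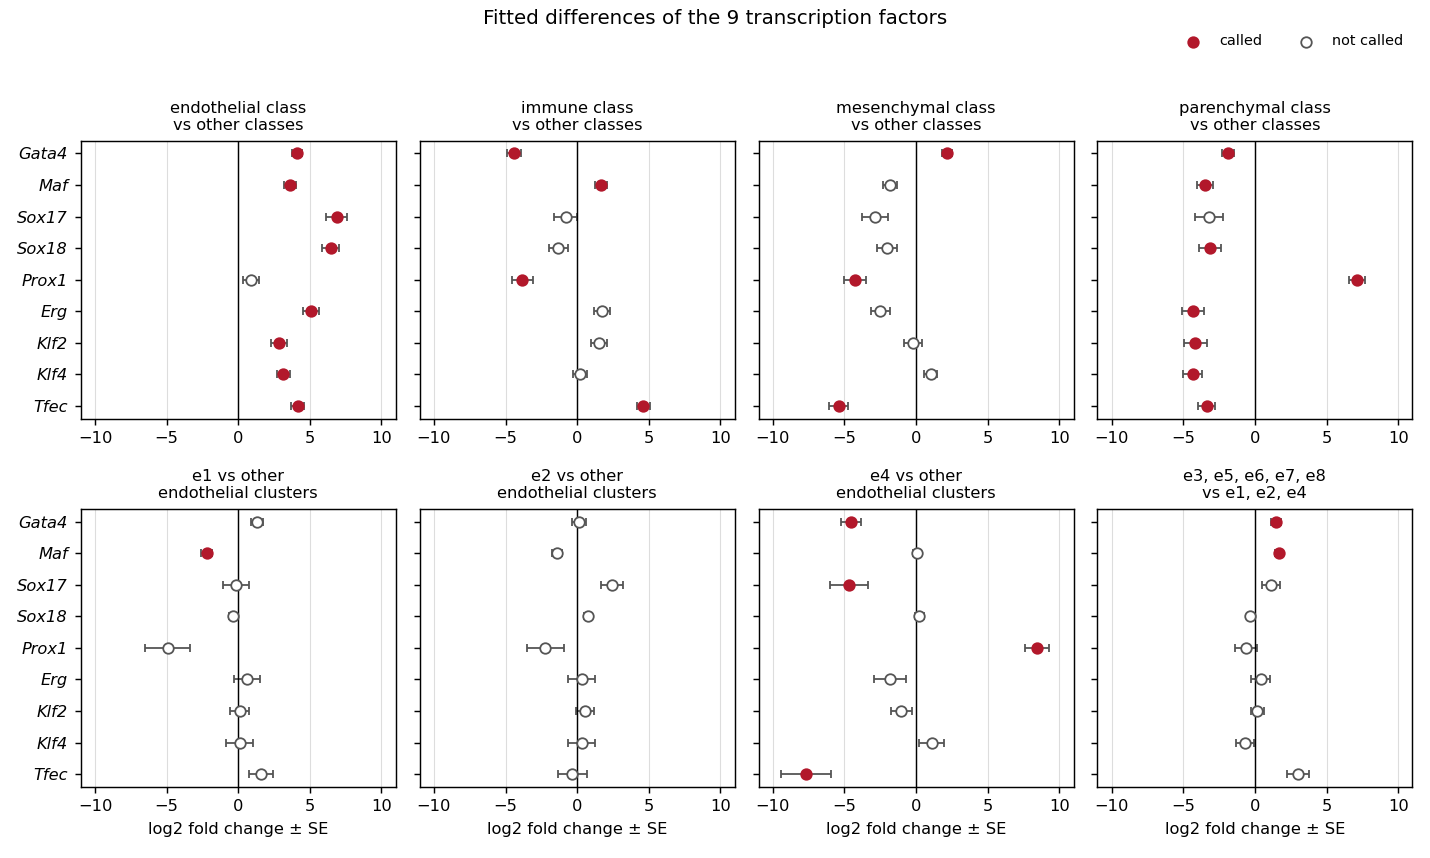
Fitted log2 fold change with its standard error (horizontal) of the 9 genes (vertical) in the 4 class comparisons (upper row) and the 4 comparisons between endothelial clusters (lower row). Filled points passed an adjusted p under 0.05 with an absolute log2 fold change of at least 1. In the endothelial class 8 genes were called, in e2 none, and in e4 *Prox1* stands at 8.45 on the right and *Gata4*, *Sox17* and *Tfec* on the left.

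Levels of different genes can be set side by side only per length. Per kilobase of exon, *Sox18* led in the endothelial class with 386 CPM, followed by *Klf2* with 265, *Gata4* with 137, *Maf* with 71.7, *Klf4* with 44.0, *Sox17* with 29.4, *Erg* with 24.1, *Tfec* with 12.1 and *Prox1* with 1.27 CPM per kilobase. This order is that of both pools together and of the male pool. In the female pool *Klf2* (82.6 CPM per kilobase) came after *Gata4* (139.7), and *Klf4* (22.5) after *Sox17* (34.9) and *Erg* (28.0). The exon lengths behind these values ranged from 1.62 kilobases (*Sox18*) to 8.39 kilobases (*Prox1*).

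Within the endothelium, the clusters differed in which of the 9 genes stood high. Over both pools the highest level of *Gata4* and *Tfec* was in e6, of *Maf*, *Klf2* and *Klf4* in e3, of *Sox17* and *Sox18* in e2, of *Erg* in e7 and of *Prox1* in e4. Each of these 9 leading clusters stayed the same with cells thinned to 50000 reads and with the mean of CPM over cells. By the share of cells with 20 or more reads, e1 led for *Gata4* and e3 for *Sox18* and *Erg* in place of those named, and the other 6 genes kept their leading cluster. Within the female cells alone e1 led for *Gata4* (736 CPM), e5 for *Sox17* (439 CPM), e8 for *Klf2* (313 CPM) and e4 for *Klf4* (296 CPM), and within the male cells e8 led for *Tfec* (165 CPM). Only *Maf*, *Sox18*, *Erg* and *Prox1* had the same leading cluster in both pools, and e3 held 230 male and 6 female cells.

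**Figure D3:**
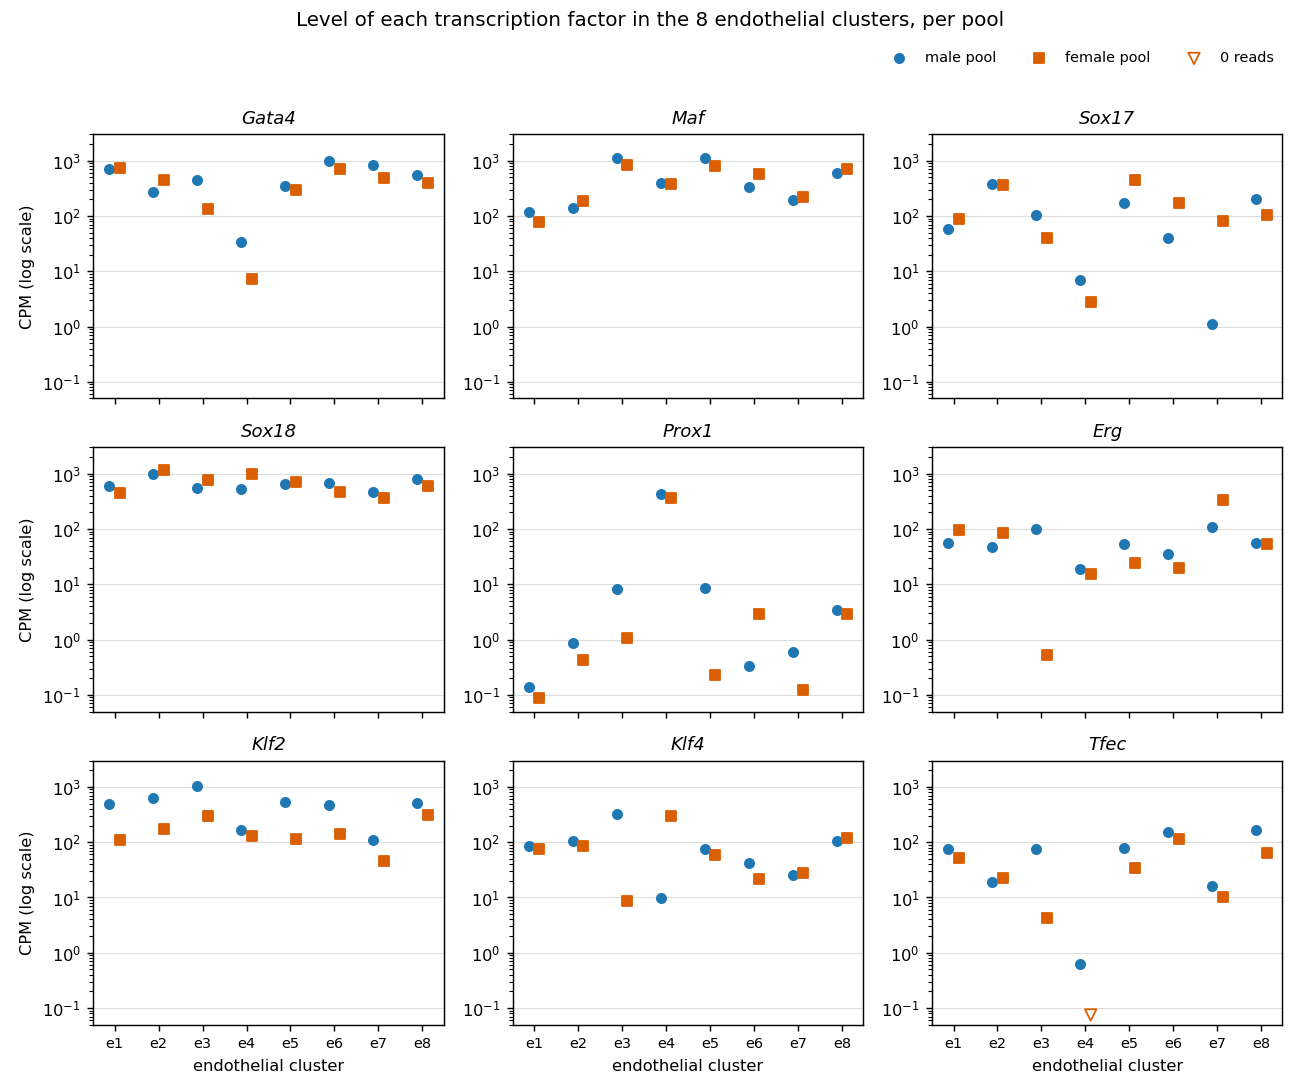
Level of each gene in CPM on a log axis (vertical) in endothelial clusters e1 to e8 (horizontal). Circles are male and squares female cells of a cluster, and the open triangle marks 0 reads. *Prox1* is high in e4 alone, *Sox18* is within 371 to 1149.5 CPM throughout, and the circles of *Klf2* lie above the squares in all 8 clusters.

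*Maf* was the member with the clearest order. It was at 1137 and 852 CPM in the male and female cells of e3, 1136 and 798 CPM in e5, 589.6 and 714 CPM in e8 and 337 and 571 CPM in e6. After these sinusoidal clusters came e4 with 389 and 385 CPM, e7 with 199 and 216, e2 with 141 and 186, and e1 with 119 and 78.3 CPM. From e4 downwards no cluster overlapped the next one, whereas e3 overlapped e5 and e6 overlapped e4. In a sinusoidal group that took in e7 as well (e3, e5, e6, e7 and e8 against e1, e2 and e4), *Maf* was called higher by a log2 fold change of 1.65 (standard error 0.23, edgeR adjusted p = 0.00107). In e1 it was called lower by −2.20 (standard error 0.38, edgeR adjusted p = 0.00647), a call lost without the female e1 cells at −1.90 (edgeR adjusted p = 0.146). With sums per plate, neither call of *Maf* held (edgeR adjusted p = 0.570 and 0.116). With e7 counted outside the sinusoidal group, *Maf* was still called higher there. Kupffer cell markers, which accompany a cell type high in *Maf* and *Tfec*, were summed to 1088 CPM in e8 and to 17.4 to 109 CPM in the other clusters, and their part in the e8 levels was not tested.

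*Gata4* was at 996 and 723 CPM in e6, 710.1 and 736 CPM in e1, 847 and 478 CPM in e7 and 550.3 and 400.2 CPM in e8. It had 451 and 134 CPM in e3, 277 and 454 CPM in e2 and 352 and 295 CPM in e5. Each of these 7 clusters overlapped its neighbour in the order. Only e4, with 33.7 and 7.26 CPM, stood below all others. In the sinusoidal group *Gata4* was called higher by a log2 fold change of 1.46 (standard error 0.34, edgeR adjusted p = 0.0365). The call rested on e4. With e4 left out of the contrast, an alternative chosen after the values had been seen, the log2 fold change of *Gata4* against e1 and e2 was −0.072 (standard error 0.37, edgeR adjusted p = 0.99996), while that of *Maf* was 2.20 (edgeR adjusted p = 5.3e-04). The call of *Gata4* failed under 12 of 26 alternatives, among them the removal of either e1 or either e2 library and of the male e5, e6, e7 or e8 cells, at log2 fold changes of 1.34 to 1.60. With e7 counted outside the group the value was 0.73 (edgeR adjusted p = 0.231). In e1 the log2 fold change was 1.29 (standard error 0.42, edgeR adjusted p = 0.193), and it passed with sums of at least 10 cells, with cells thinned to 50000 reads, without a filter and without the male e4 cells. *Prox1* had the largest fitted change of the 9 in e1, −4.94 (standard error 1.55, edgeR adjusted p = 0.165), which was called under DESeq2 (−5.14, adjusted p = 7.0e-04) and without a filter (−4.88, edgeR adjusted p = 0.0374) and is set against a mean that includes e4. It rested on 6 reads in the 152 cells of e1.

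*Tfec* was at 155 and 115 CPM in e6, 165 and 64.6 CPM in e8, 76.0 and 4.29 CPM in e3, 79.9 and 33.9 CPM in e5 and 75.8 and 52.3 CPM in e1. It was lower in e2, with 18.9 and 22.9 CPM, and in e7, with 16.2 and 10.1 CPM. Levels in e6, e8, e3, e5 and e1 overlapped from each to the next, and e2 and e7 lay below e1 without overlap. The log2 fold change in the sinusoidal group was 3.01 (standard error 0.80, edgeR adjusted p = 0.0662). With e4 left out of the contrast it was 0.59 (standard error 0.74, edgeR adjusted p = 0.971), and e1 (65.5 CPM over both pools) and e2 (21.1 CPM) lay above e7 and below the other 4 clusters of the group. Against all 3 clusters it passed under 6 alternatives, DESeq2 (2.94, adjusted p = 3.3e-04) and e7 counted outside the group (3.14, edgeR adjusted p = 0.0243) among them. In the sinusoidal group 2 of the 9 genes (*Gata4* and *Maf*) were called higher and none lower, beside 0.759% and 1.16% of all 18321 genes tested, and in e1 none higher and 1 lower, beside 1.32% and 0.0873%. In e1 DESeq2 called *Maf* and *Prox1* lower, beside 1.21% of the genes it tested called higher and 1.05% lower.

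*Sox17* was at 385 and 358 CPM in the male and female cells of e2, the portal vein cluster, and at 173 and 439 CPM in e5. Further down came e8 (202 and 103.7 CPM), e6 (40.03 and 172 CPM), e3 (102 and 40.3 CPM), e1 (58.7 and 89.4 CPM) and e7 (1.10 and 81.1 CPM), and neighbours in this order overlapped. In e4 it had 6.86 and 2.79 CPM. The log2 fold change in e2 was 2.45 (standard error 0.75, edgeR adjusted p = 0.132), so *Sox17* was not called. Without a filter it was called (2.48, edgeR adjusted p = 5.2e-04), as it was with sums per plate (2.82, edgeR adjusted p = 0.0153) and without the male or the female e7 cells (2.31 and 3.23, edgeR adjusted p = 0.0361 and 0.00480). Its pools were furthest apart in e7.

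The 14 cells of the peribiliary vessels in e2, chosen for description after their values had been seen, had 881 CPM of *Sox17* and 1335 CPM of *Sox18*, against 298 and 1045 CPM in the 114 portal vein cells. Of the 14 cells, 5 (35.7%) had 20 or more reads of both genes and none of *Sox17* alone. Among portal vein cells 41 (36.0%) had both and 5 *Sox17* alone, so the higher level of *Sox17* came without a higher share of cells. It rested on few of the 14 peribiliary cells. The peribiliary cells had 5.06 CPM of *Gata4*, 4.60 CPM of *Maf* and 3.68 CPM of *Erg*, where the portal vein cells had 425, 188 and 76.4 CPM. None of the 14 had 20 or more reads of *Gata4* or of *Maf*, which allows a share of up to 21.4% by a limit of 3 counts and 23.2% by the exact 95% interval. Without them the log2 fold change of *Sox17* in e2 was 2.09 (edgeR adjusted p = 0.289), and that of *Maf* went from −1.41 to −1.24 (edgeR adjusted p = 0.0515 and 0.103).

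In e2 none of the 9 genes was called by edgeR with the settings used throughout, beside 1.85% of all genes called higher and 0.0819% lower. At an unadjusted p under 0.05 there were 3 (*Maf*, *Sox17* and *Sox18*), beside 9.70% of all genes. DESeq2 called 1, *Maf*, at −1.55 (adjusted p = 0.00585), beside 2.49% of the genes it tested (1.45% higher and 1.03% lower). *Maf* also passed with RLE size factors (−1.55, edgeR adjusted p = 0.0452), with sums of at least 10 cells (−1.43, edgeR adjusted p = 0.0434) and without the male or the female e4 cells (edgeR adjusted p = 0.0389 and 0.0425). With the pool as a block, e2 had 211 genes called in all in place of 354, and again none of the 9.

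*Sox18* varied least. It was at 1000.2 and 1149.5 CPM in e2, followed by 533 and 990.5 CPM in e4, and at 371 to 791 CPM in the cells of the other clusters. Only e2 stood above its neighbour without overlap. The *Sox18* log2 fold changes in the 4 cluster comparisons ran from −0.34 in e1 to 0.77 in e2 (edgeR adjusted p = 0.944 and 0.230).

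*Erg* was at 111 and 334 CPM in e7. The cells of all other clusters were at 100.4 CPM or lower, with 19.3 and 15.4 CPM in e4. The 230 male cells of e3 were at 100.4 CPM and its 6 female cells at 0.537 CPM. None of the 4 cluster comparisons called *Erg*, with log2 fold changes of −1.81 to 0.60. The top 10% of the cells of e7 by *Erg* held 92.4% of its reads there, so the level of e7 rested on few cells.

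In the lymphatic cluster e4, *Prox1* reached 439.8 CPM over 9 male and 372 CPM over 13 female cells, and in all other clusters between 0.0894 and 8.53 CPM. The 2 ranges do not overlap. Its log2 fold change was 8.45 (standard error 0.81, edgeR adjusted p = 1.1e-05), and the call held in all 23 alternatives, at 7.98 to 8.997. For comparison, the parenchymal pools had 189 and 387 CPM. On the opposite strand in e4, *Prox1os* had 63.0 and 8.93 CPM and *Gm28172* had 0. The authors named e4 lymphatic by marker genes with *Prox1* among them, so the high level of *Prox1* there was built in.

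The 3 members lower in e4 were *Gata4*, *Sox17* and *Tfec*. *Gata4* fell by 4.55 on the log2 scale (standard error 0.68, edgeR adjusted p = 6.5e-04), and the call failed only with sums per plate, which left 1 sum for e4 (−6.22, edgeR adjusted p = 0.0674). *Sox17* fell by 4.68 (standard error 1.34, edgeR adjusted p = 0.0451), with 21 reads over the 22 cells. That call failed under 6 of 23 alternatives, with the pool as a block (−4.55, edgeR adjusted p = 0.0813), with RLE size factors (−4.21, edgeR adjusted p = 0.0511) and without the male or the female e4 cells (edgeR adjusted p = 0.125 and 0.227) among them. For *Tfec* e4 held 1 read in its male cells and none in its female cells, against 19213 reads in the other clusters, a ratio of 358 with an exact 95% interval of 64.2 to 14126 that covers counting error only. The fitted log2 fold change of *Tfec*, −7.68 (standard error 1.74, edgeR adjusted p = 0.0122), depends on the prior count, and the call failed without the female e4 cells (edgeR adjusted p = 0.0934) and with sums per plate (edgeR adjusted p = 0.271). The remaining 5 genes were not called in e4. The fold change of *Maf* was 0.07 on the log2 scale (edgeR adjusted p = 0.99997), with 389 and 385 CPM in e4, and that of *Sox18* was 0.24 (edgeR adjusted p = 0.746).

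Called in e4 were thus 1 member higher and 3 lower, where 4.92% and 1.88% of all genes were called higher and lower. With the pool as a block, 796 genes in all were called in place of 1245. The fit placed the median log2 fold change of all genes in e4 at −0.42. RLE size factors in place of TMM moved it by 0.43 to 0.01, and the genes called went from 901 higher and 344 lower (72.4% higher) to 1454 and 284 (83.7% higher). Relative to the median of all genes, *Prox1* stood at 8.87 and 8.93, *Gata4* at −4.13 and −4.05, *Sox17* at −4.26 and −4.22, and *Sox18* at 0.66 and 0.61 under the 2 scalings. In e1 and e2 RLE moved the median by −0.15 and −0.13. Relative to it *Maf* stood at −2.40 and −2.42 in e1, and *Sox17* at 2.27 and 2.26 in e2.

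Of 7 marker lists of other cell types, 5 had their highest sum in the 22 cells of e4. The 6 mesenchymal markers were summed to 517 CPM (11.8 to 49.7 CPM in the other clusters), the 4 smooth muscle markers to 240.1 CPM (2.70 to 23.95 CPM), the 4 B cell markers to 208 CPM (2.51 to 32.6 CPM), the 5 cholangiocyte markers to 200.4 CPM (0.567 to 108 CPM) with 2 of them at 0, and the 5 hepatic stellate cell markers, *Reln* among them, to 1227 CPM (183.6 to 949.6 CPM) with 1 at 0. The 8 hepatocyte markers came to 408 CPM in e4 (162 to 492 CPM in the other clusters) and the 6 Kupffer cell markers to 19.9 CPM (17.4 to 1088 CPM). The endothelial markers were summed to 5887 CPM in e4 and to 8823 or more in the other clusters. The part of these cells in the e4 values was not tested. Cholangiocytes are among the cells that also have *Prox1*.

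Outside e4, 8 of 1084 endothelial cells had 20 or more reads of *Prox1*. The lymphatic genes *Mmrn1* and *Pdpn* were at 0 CPM in these 8 cells and at 3900 and 655 CPM in e4. *Stab2*, a receptor of sinusoidal cells, was at 2110 CPM in the 8 cells, at 1790 CPM in the other 1076 and at 489.9 CPM in e4. *Lyve1*, which lymphatic and sinusoidal cells share, was at 779 CPM in the 8 cells, 244 CPM in the other 1076 and 1561 CPM in e4. *Alb*, which hepatocytes make in large amounts, was at 376 CPM in the 8 cells and at 167 CPM in the other 1076.

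*Klf2* was higher in the male than in the female cells of all 8 clusters, by over 1 on the log2 scale in 6 of them. In e3 it was at 1039.8 and 297 CPM, in e5 at 542 and 113 CPM, in e2 at 631 and 170.3 CPM, in e8 at 503 and 313 CPM, in e1 at 484 and 109.6 CPM, in e6 at 464 and 143 CPM, in e4 at 168 and 128 CPM and in e7 at 111 and 46.7 CPM. Neighbours in this order overlapped, apart from e4 and e7. *Klf4* had no such order of the pools. It was at 321 and 8.59 CPM in e3, at 9.98 and 296 CPM in e4, at 103 and 119 CPM in e8, at 103 and 85.1 CPM in e2, and lower in e1, e5, e6 and e7. No cluster comparison called *Klf2* or *Klf4* in these sums. With sums of at least 10 cells, which left out the 9 male cells of e4 and the 6 female cells of e3, *Klf4* was called higher in e4 (1.95, edgeR adjusted p = 0.0239).

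Genes of the immediate early kind are known to react while tissue is taken apart, and KLF2 and KLF4 are often counted among them. Therefore the summed level of 16 immediate early and dissociation genes (*Fos*, *Jun*, *Egr1*, *Hspa1a* and others) is given beside them. In endothelial cells it came to 9437 (male) and 3561 CPM (female). Per cluster it ran from 759 CPM in e7, where *Klf2* was lowest, to 12522 CPM in e3, where *Klf2* was highest over both pools. In e5 and e4 it went the other way between pools, with 2671 and 4607 CPM in the male and female cells of e5, and 4434 and 5487 CPM in those of e4. Over the 15 plates with at least 5 endothelial cells, *Klf2* ranged from 73.2 to 1026 CPM with a median of 313, and the summed list from 273 to 17795 CPM. The 11 male plates had *Klf2* between 73.2 and 1026 CPM and the 4 female plates between 119 and 342 CPM, ranges that overlap. None of the 16 genes was called in the endothelial class, with a median log2 fold change of −0.49. The part of tissue handling in the *Klf2* and *Klf4* levels was not tested.

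**Figure D4:**
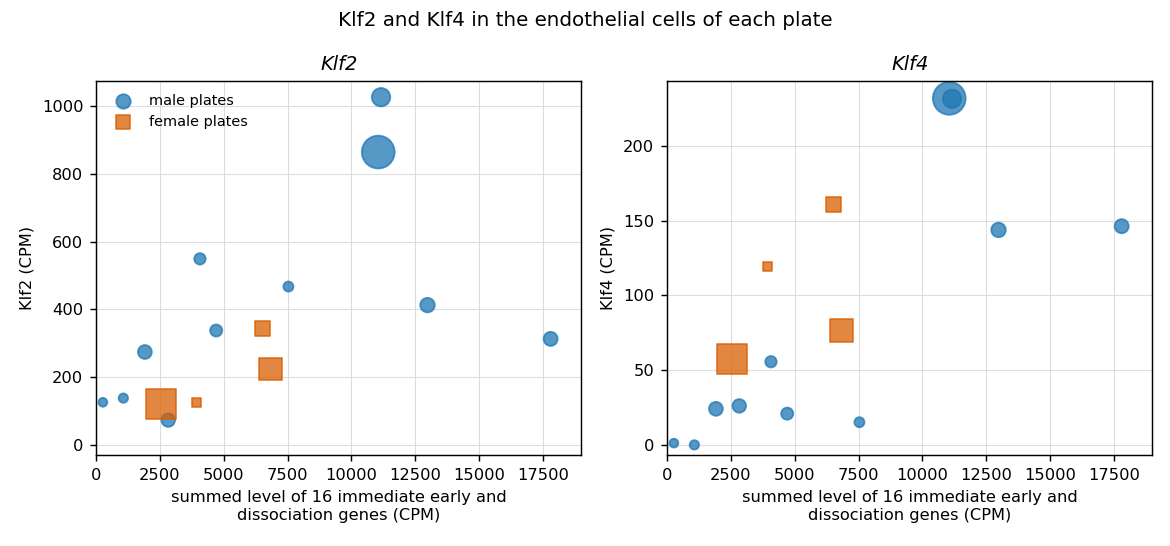
*Klf2* (left) and *Klf4* (right) in CPM (vertical) against the summed level of 16 immediate early and dissociation genes in CPM (horizontal). A point holds the endothelial cells of 1 plate, circles for male and squares for female plates, with an area that grows with the number of cells. The 2 plates highest in *Klf2*, at 1026 and 864 CPM, have summed levels of 11158 and 11049 CPM, and the plate with the highest summed level, 17795 CPM, has 313 CPM of *Klf2*.

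Shares of cells with 20 or more reads, given with exact 95% binomial intervals, followed the levels in most clusters. *Maf* was at this limit in 228 of 236 cells of e3 (96.6%, 93.4 to 98.5%) and in 29 of 150 cells of e7 (19.3%, 13.3 to 26.6%). *Gata4* reached it in 115 of 152 cells of e1 (75.7%, 68.0 to 82.2%) and in 1 of 22 cells of e4 (4.55%, 0.115 to 22.8%). *Sox18* was found at the limit in 60.3 to 77.5% of the cells of 7 clusters and in 39 of 150 cells of e7. *Sox17* reached it in 39.8% of the cells of e2 (31.3 to 48.9%) and in 2.67% of those of e7, and in e4 in 0 of 22 cells, which allows a share of up to 13.6% by a limit of 3 counts and 15.4% by the exact interval. *Prox1* passed in 9 of 22 cells of e4 (40.9%, 20.7 to 63.6%). Once each cell was thinned to 50000 reads, 100% of the cells of e3 and 39.6% of those of e7 still had a read of *Maf*, and 59.1% of the cells of e4 had one of *Prox1*, against 7.14% or less in the other clusters.

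**Figure D5:**
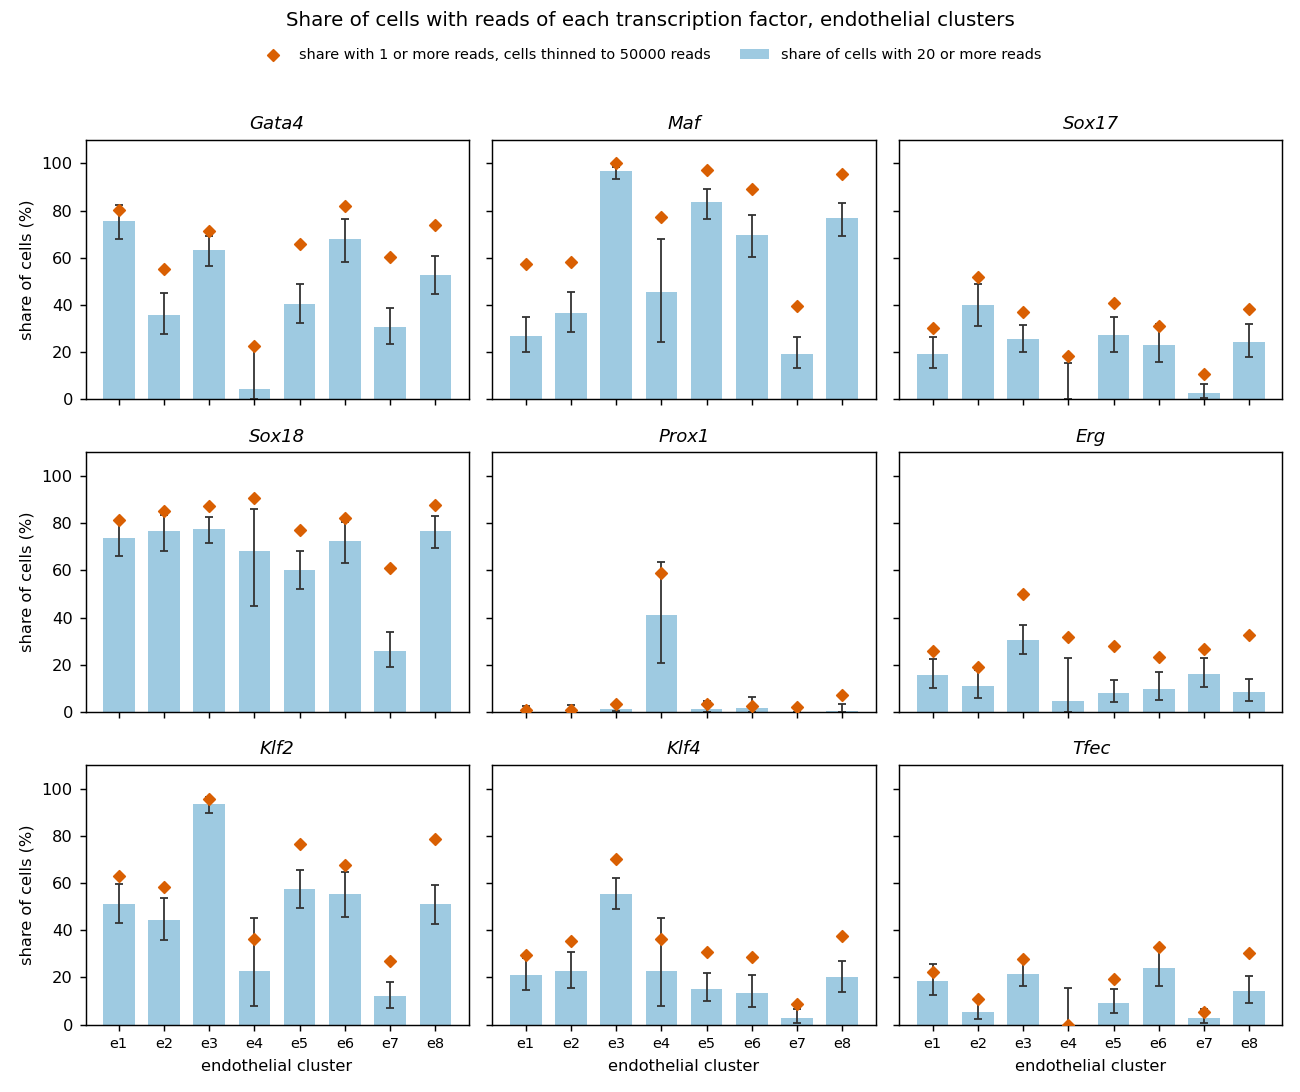
Share of cells in % (vertical) in endothelial clusters e1 to e8 (horizontal). Bars give the share with 20 or more reads, with exact 95% binomial intervals, and diamonds the share with 1 or more reads after each cell was thinned to 50000 reads. *Maf* reaches 96.6% in e3, *Prox1* 40.9% in e4 and under 2% elsewhere, and e7 has the lowest bars for *Maf*, *Sox18*, *Klf2* and *Klf4*.

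At the level of single cells, 382 of 1106 endothelial cells (34.5%, 31.7 to 37.4%) had 20 or more reads of both *Gata4* and *Maf*, 194 of *Gata4* alone and 296 of *Maf* alone. In e3 both were found in 146 of 236 cells, in e1 in 33 of 152 and in e7 in 8 of 150. *Sox17* came with *Sox18* in 16.6% of the 1106 cells and without it in 65 cells, while 554 cells had *Sox18* alone. *Klf2* and *Klf4* were seen together in 222 cells, 129 of them in e3. No cell of e4 had both *Prox1* and *Gata4* at this limit, and 6 of its 22 cells had both *Prox1* and *Maf*.

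Other transcription factors known from endothelial cells were counted from a list of 33, chosen with results of these data known. In the endothelial class 17 were called higher and none lower, with a median log2 fold change of 2.61 (0.04 over all genes tested, of which 5.33% were called higher and 2.96% lower). *Sox7*, the third SOX factor of the same group, had 6.24 (standard error 0.54, edgeR adjusted p = 9.6e-04), and *Bcl6b*, *Tcf15* and *Mecom* had 5.90, 5.85 and 5.41. Of 29 relatives of the members by family, 26 were tested, 5 were called higher and 1 lower, and the median was 0.48. Those higher included the ETS genes *Fev* (9.70) and *Fli1* (3.47) and *Gata2* (5.26). In e2, 4 of 30 listed factors were called higher and none lower, *Tcf15* (8.85), *Meox1* (7.45), *Hey1* (5.43) and *Mecom* (4.37), beside 1.85% and 0.0819% of all genes. Cluster e4 had 3 higher and 2 lower, beside 4.92% and 1.88% of all genes. *Meox1* (10.88), *Foxc2* (8.03), a factor of lymphatic valves, and *Hey1* (5.37) were higher, and *Mecom* (−5.54) was among the lower ones. Of 23 family relatives tested in e4, *Mitf* (6.94), *Klf12* (4.23) and *Tfeb* (4.07) were higher.

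Genes that are known to lie downstream of the members were described in the same way. All 8 genes linked to ERG were called higher in the endothelial class (median log2 fold change 5.43), *Vwf* by 7.28, *Tek* by 6.59, *Robo4* by 6.06 and *Cldn5* by 5.73. So were all 10 sinusoidal genes linked to GATA4 and MAF (median 5.23) with *F8* at 6.97 and *Oit3* at 5.63, all 4 linked to KLF2 and KLF4 (median 5.65) with *Nos3* at 6.24 and *Thbd* at 5.27, 4 of 6 arterial genes linked to SOX17 (median 4.85) with *Dll4* at 6.27, and 4 of 6 lymphatic genes linked to PROX1 (median 5.25) with *Mmrn1* at 8.56. The medians stand beside 0.04 over all genes, and the counts beside 5.33% of all genes called higher. Endothelial cells were sorted on CD31, VE-cadherin or Cldn5-GFP, and *Tek* is also among the endothelial markers summed earlier. High calls of such genes in this class were therefore largely built in, and the lists were chosen with earlier results of these data known.

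The same 5 lists were counted between clusters, where 4.92% of all genes were called higher and 1.88% lower in e4, 1.85% higher and 0.0819% lower in e2, 1.32% and 0.0873% in e1, and 0.759% and 1.16% in the sinusoidal group. In e4 all 6 lymphatic genes were called higher (median 9.04, against −0.42 over all genes), with *Mmrn1* at 12.70, *Pdpn* at 11.98, *Reln* at 10.45, which also marks stellate cells, and *Ccl21a* at 7.63. The authors named e4 lymphatic by *Mmrn1*, *Pdpn* and *Ccl21a* among other markers in these same cells, so these calls were built in. Of the 10 sinusoidal genes, 5 were called lower in e4 (median −1.65), *Oit3* by −3.07, *Fcgr2b* by −2.75 and *Clec4g* by −2.71 among them, and *Lyve1*, which is shared with lymphatic cells, was called higher by 5.04. In the sinusoidal group 7 of these 10 were called higher (median 1.92, against 0.11 over all genes), with *Stab2* at 3.66, *Oit3* at 2.51 and *Bmp2* at 2.48, and in e1 3 were called lower, *Lyve1* by −6.51, *Stab2* by −6.23 and *Mrc1* by −2.99. The sinusoidal group takes in e7, which the authors annotated as central vein, and the list was not counted with e7 outside it. The authors named the sinusoids by *Bmp2* and *Mrc1* among other markers, so differences in these genes were partly built in. In e2, 2 of 5 arterial genes tested were called higher (median 1.80, against 0.18 over all genes), *Gja5* by 7.18 and *Dll4* by 3.58. Of the 4 genes linked to KLF2 and KLF4, *Edn1*, which KLF2 is known to hold down, was called higher in e1 (5.17) and e2 (4.34) and lower in e4 (−2.58) and the sinusoidal group (−3.23), and the others were not called.

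The 8 genes linked to ERG were called in both directions between clusters. *Vwf* was higher in e1 (5.08) and e2 (3.51) and lower in e4 (−2.85) and the sinusoidal group (−2.68), and *Cldn5* was lower in e1 (−5.79) and higher in e2 (1.83) and e4 (2.48). In e4 *Tek* (−2.01) and *Eng* (−1.02) were also lower, and no other gene of this list was called. Among the lymphatic genes, 2 were called lower in e1 (*Lyve1* and *Flt4*, the latter by −2.11) and 3 in the sinusoidal group, *Mmrn1* (−5.24), *Pdpn* (−4.36) and *Reln* (−3.82), and none was called in e2. Of the arterial genes *Unc5b* was called higher in e4 (4.94), and none was called in e1 or the sinusoidal group. No sinusoidal gene was called in e2.

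Over the 16 sums of a cluster and pool, the genes most like each member by Pearson's correlation of log2(CPM + 1) were sought among 10027 genes with a mean of at least 10 CPM. These values describe 16 points that share pools and plates, and carry no test. *Gata4* was most like *Bace2* (r = 0.96), *Arl4d* (0.96) and *Dpagt1* (0.93), and *Maf* like its antisense neighbour *Gm15655* (0.94), *Chst15* (0.93) and *Stab2* (0.92). *Sox17* was closest to *Ncoa7* (0.94), *Stx17* (0.90) and *Mtmr14* (0.89), *Sox18* to *B9d2* (0.78), *Clca3a1* (0.78) and *Hey1* (0.75), and *Prox1* to *Fam180a*, *Nrcam* and *Cyfip2* (each 0.93). For *Erg* they were *Serbp1* (0.92), *Lin7c* (0.91) and *Serinc4* (0.90), for *Klf4* *Kansl1l* (0.86), *Sdad1* (0.86) and *Polr3f* (0.84), and for *Tfec* *Gse1* (0.93), *Gins2* (0.92) and *Dusp22* (0.91). *Klf2* was most like *Zfp36* (0.85), *X2010015M23Rik* (0.84) and *Jund* (0.83), and *Zfp36* and *Jund* are also on the immediate early list. Among the members themselves *Gata4* and *Tfec* had r = 0.86, *Gata4* and *Prox1* −0.85, and *Klf2* and *Klf4* 0.40.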

How the data were processed

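Single liver cells were sequenced with Smart-seq2, and the authors deposited raw counts of reads per gene and cell, with cells filtered on depth, genes, mitochondrial reads and spike-ins and with their clusters and annotation. The submitters' processing notes name bcl2fastq, Bowtie, Bowtie2, Subread featureCounts, Seurat and mm10 (GRCm38), without versions or parameters. Reads were single and 50 bases long, strand was not kept, and reads shared by near-identical genes may be split or lost by such counting. The 92 ERCC spike-in rows were left out of all totals, which left 46517 genes, and 0 columns had no sample.

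Samples were grouped by class and sex from their labels. The members and all gene lists were chosen with earlier results of these data known. Counts were summed per class and pool (8 sums, 24046 genes tested) or per endothelial cluster and pool with at least 5 cells (16 sums, 18321 genes tested), and tested with edgeR 4.0.16 in R 4.3.3 (TMM, filterByExpr, quasi-likelihood F test, Benjamini-Hochberg over all genes tested). Calls needed an adjusted p under 0.05 and an absolute log2 fold change of at least 1. CPM were computed from summed counts, and shares of cells carry exact 95% (Clopper-Pearson) intervals, with 3 counts as the limit behind a share of 0. For shares at matched depth each cell was thinned to 50000 reads, and 13 shallower cells were left out. Gene positions came from GENCODE on GRCm38.

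The rule let the text name the 9 members in every comparison, up to 4 called genes per list by the size of their change, and the 3 genes most like each member. Male and female sums of the clusters come from the same 2 endothelial samples and are paired through them. Over 28 pairs of clusters, deviations of same-numbered sums correlated at −0.0282 to 0.0878 (median 0.0399). On simulated counts for the endothelial class (23424 genes), 4% of 100 genes changed by 2 on the log2 scale and 22% of 100 changed by 3 were called, with 1 false call. For e2 (17448 genes) these were 8% and 24%, with 13 false calls. Alternatives were DESeq2 1.42.0, RLE size factors, no filter, thinned cells, the pool as a block, sums per plate, a higher minimum of cells and each sum left out. Added after seeing the data were e2 without its peribiliary cells, immune pools without contaminated cells and the sinusoidal group against e1 and e2 alone. Figures were drawn with matplotlib 3.10.9.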

Additional observations from a re-analysis of the deposited data

Results flagged for a closer look

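In 10 cases the male and the female pool moved in opposite directions in the same comparison. Each sex had 1 pool, so none of these differences was tested, and sex, mice and plates cannot be told apart. Values are log2 differences within the male and the female pool, followed by the male minus the female value. *Klf4* in the lymphatic cluster e4 had −2.94 and 2.74, a gap of −5.68, and *Klf4* in the sinusoidal group had 0.70 and −1.89 (2.59). *Sox18* in e4 had −0.27 and 0.66 (−0.93). In the portal cluster e2, *Tfec* had −1.08 and 0.44 (−1.53), *Gata4* had −0.52 and 0.95 (−1.47) and *Erg* had −0.13 and 1.54 (−1.66). In the sinusoidal group *Sox17* had −0.30 and 1.38 (−1.69) and *Erg* had 0.73 and −1.01 (1.74). *Klf2* in e1 had 0.36 and −0.38 (0.74), and *Klf4* in the immune class had −0.27 and 0.43 (−0.69). None of these 10 was called with the settings used throughout, and *Klf4* in e4 was called with sums of at least 10 cells (1.95, edgeR adjusted p = 0.0239).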

How the results depend on the processing

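Of 30 calls of the 9 genes over the 8 comparisons, 14 held in every alternative that could be fitted and 16 were lost in at least 1. All genes called were, under DESeq2, 4497 (endothelial), 5655 (immune), 4292 (mesenchymal), 5601 (parenchymal), 3073 (e4) and 1446 (sinusoidal group), and without a filter 4210, 5507, 4761, 5066, 2002 (e4), 699 (sinusoidal group), 998 (e1) and 1102 (e2). Sums per plate called 3492 (endothelial), 530 (e1), 674 (e2), 574 (e4) and 228 (sinusoidal group), and sums of at least 10 cells 641 (sinusoidal group). The pool as replicate block called 211 genes in e2 and 796 in e4. Among the 9 genes it ended the call of *Sox17* in e4 (−4.55) and brought calls of *Sox18* in mesenchymal (−2.20) and *Klf2* in immune cells (1.74), and it changed no other call. Pools of different classes share a sex and some plates (6 pairs, r 0.0872 to 0.147).

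Members called, with the share of all genes called in brackets, were 7 in mesenchymal cells under DESeq2 (18.95%) and without a filter (13.8%) and 5 with sums per plate (16.5%). In e1 they were 2 under DESeq2 (2.25%), 3 without a filter (3.41%), 2 with thinned cells (1.502%) or at least 10 cells (1.51%) and 0 with plates (2.92%), in e2 1 under each of DESeq2 (2.49%), RLE (1.91%), no filter (3.77%), plates (3.72%) and at least 10 cells (1.41%), in e4 1 with plates (3.17%), and in the sinusoidal group 1 under RLE (2.09%) and 0 with plates (1.26%).

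With e4 outside the reference clusters of the sinusoidal group, 176 genes and 1 member (*Maf*) were called, and the value of *Gata4*, called in the group, changed sign to −0.072. So did the uncalled *Sox17* (−0.58), *Prox1* (2.90), *Erg* (−0.25) and *Klf2* (−0.22). No other called value changed sign. Values not called that did were, with sums per plate, *Klf4* (immune, −0.16), *Klf2* (mesenchymal, 0.067, e1, −0.37, and e2, −0.043), *Sox17* (e1, 0.061), *Gata4* (e2, −0.11), *Klf4* (e2, −0.18), *Tfec* (e2, 0.071) and *Prox1* (sinusoidal, 0.58). With thinned cells they were *Sox17* (e1, 0.050), *Klf2* (e1, −0.055), *Klf4* (e1, −0.30, and e2, −0.10) and *Tfec* (e2, 0.84), with at least 10 cells *Klf4* (e1, −0.16) and *Tfec* (e2, 0.29), with DESeq2 and RLE *Klf2* (e1, −0.069 in both), *Klf4* (e1, −0.0097 and −0.010) and *Gata4* (e2, −0.0051 and −0.0056), with the block *Klf2* (e1, −0.075), without a filter *Maf* (e4, −0.0048), and with e7 outside the sinusoidal group *Prox1* (0.70) and *Erg* (−0.82).

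Leaving out each sum in turn gave 606 to 1894 genes called (endothelial), 1847 to 3096 (immune), 1528 to 2710 (mesenchymal), 1933 to 2852 (parenchymal), 160 to 352 (e1), 250 to 433 (e2), 991 to 1811 (e4) and 192 to 542 (sinusoidal group). Members called were 5 to 9 (parenchymal), 0 to 2 (e1), 0 to 1 (e2), 2 to 4 (e4) and 1 to 3 (sinusoidal group). Ranges that crossed 0 were *Klf4* −0.17 to 0.45 (immune), −0.046 to 0.71 (e1), −2.81 to 2.01 (e4) and −1.52 to 0.59 (sinusoidal), *Klf2* −1.02 to 0.33 (mesenchymal), −1.33 to 0.83 (e1), −0.70 to 1.24 (e2) and −0.13 to 0.67 (sinusoidal), *Sox17* −0.48 to 0.62 (e1), *Gata4* −0.23 to 0.43 (e2), *Erg* −0.079 to 1.25 (e2) and −0.86 to 0.60 (sinusoidal), *Tfec* −0.53 to 0.43 (e2), *Maf* −0.045 to 0.095 (e4) and *Sox18* −0.27 to 0.53 (e4). Where a class or cluster was left with 1 sum, that sum was assumed to vary like the others. The cause of these changes was not tested. The e4 cluster held 22 cells and e3 6 female cells, and in the simulated endothelial class and e2 most changes of 2 on the log2 scale were not called with 2 pools a group. Leaving out a whole pool of all clusters gives values without a test, within the remaining pool. Of those, *Klf4* reached −2.94 and 2.74 (e4) and −1.89 and 0.70 (sinusoidal), *Gata4* −0.52 and 0.95 (e2), *Erg* −0.13 and 1.54 (e2) and −1.01 and 0.73 (sinusoidal), *Tfec* −1.08 and 0.44 (e2), *Sox18* −0.27 and 0.66 (e4), *Sox17* −0.30 and 1.38 (sinusoidal) and 0.14 and 0.36 (e1), and *Klf2* −0.38 and 0.36 (e1).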
